A study of Rattus norvegicus with 9 samples.

Results

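The Rab GTPases are the family of small GTPases that mark the membranes of the secretory and endocytic pathways. They were taken here as every gene whose symbol was Rab followed by a number and, for some, a letter from a to d, on a transcript cluster paired with that symbol alone. A transcript cluster is the group of array probes that reads 1 gene. The rule gave 54 genes among 18166 genes with such a cluster. Rab1b and Rab27b had 2 clusters each, and the cluster of highest mean over all arrays stood for the gene. A filter on low signal, the median of all cluster means (6.654 on the log2 scale), was passed by 45 genes, which were tested, and 9 lay below it. Both clusters of Rab5a also carry the symbol Rab5al1, so Rab5a was not a member.

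The study asked how Set-β, a histone chaperone and inhibitor of protein phosphatase 2A, alters gene expression in retinal ganglion cells, the output neurons of the eye. Cells from Sprague Dawley pups at postnatal day 4 were isolated by immunopanning and electroporated. The wt-SetB group received wild-type Set-β, the myr-SetB group received myr-Set-β, a form that carries a lipid tag for membranes, and the mCherry group received the red fluorescent protein mCherry alone as the control. All 3 groups also received a pMAX-GFP plasmid, were sorted the next day for green fluorescence and were kept in culture until RNA was taken 3 days after transfection. The groups therefore share the panning, the electroporation, the GFP plasmid and the sort, and a neonatal cell 3 days in culture is what they model. There were 3 arrays a group, called biological replicates in the titles. The labels do not name separate litters or cultures, so the spread behind the p-values is that between arrays and could be technical in part. No cluster was paired with the symbol Set, and the level of the transgene was not analysed here.

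A Rab protein cycles between a form bound to GTP, which sits on a membrane and recruits effectors, and a form bound to GDP, which is drawn back into the cytosol by a dissociation inhibitor. Exchange factors load GTP and thereby place the Rab on its organelle, GTPase-activating proteins end its activity, and prenylation by an escort protein and a transferase gives it the anchor. In neurons this machinery carries membrane and receptors to the growing axon, releases synaptic vesicles and returns neurotrophin receptors from the terminal to the cell body.

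The promoters of Rab28 and Rab21 are shown as examples. These members had the lowest difference from mCherry, Rab28 in wt-SetB and Rab21 in myr-SetB. Rab28 passed the signal filter only through its mCherry arrays. Whether promoters have a part in the differences was not tested. Each run is the 250 bases before the annotated start, read 5′ to 3′ on the strand of the gene, from RefSeq in build GRCr8. Rab28 is at chr14:73458178-73458427 on the plus strand and Rab21 at chr7:52814944-52815193 on the minus strand. Capitals mark the GC box, GGGCGG on either strand.
Rab28: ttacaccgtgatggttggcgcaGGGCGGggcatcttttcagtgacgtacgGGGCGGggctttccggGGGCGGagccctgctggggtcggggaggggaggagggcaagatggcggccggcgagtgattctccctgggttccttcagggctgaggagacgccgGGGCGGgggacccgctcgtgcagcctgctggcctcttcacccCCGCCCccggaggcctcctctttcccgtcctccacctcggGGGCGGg
Rab21: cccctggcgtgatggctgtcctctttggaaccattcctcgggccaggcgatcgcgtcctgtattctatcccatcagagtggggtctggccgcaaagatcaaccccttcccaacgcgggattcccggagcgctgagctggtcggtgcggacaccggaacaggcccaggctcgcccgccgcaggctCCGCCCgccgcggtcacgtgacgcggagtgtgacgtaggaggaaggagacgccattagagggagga
The Rab28 run holds 6 GC boxes and the Rab21 run holds 1. Of the 54 genes, 43 had a promoter in the RefSeq table, taken as 250 bases before and 50 after the start. The 43 were not restricted to members past the signal filter, unlike the genes they are set beside. A GC box lay in 34 of the 43 (79.1%), against 59.5% of the 8585 promoters of all genes past the signal filter and 33.1% of all 33469 promoters. The TATA box, searched as TATAAA on both strands, lay in 0 of 43 Rab promoters, against 7.92% of the promoters of genes past the filter. CCAAT was found in 37.2% of the Rab promoters and in 37.4% of those of genes past the filter. The cyclic AMP response element TGACGTCA was found in 2.33% of the Rab promoters and in 3.2% of those of genes past the filter. These matches describe letters in a window and not binding sites.

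The values are intensities on the log2 scale, with the median of every array at the same intensity of 100. The spread around that median differed: the 10th and 90th percentiles were apart by 4.12 to 4.21 log2 units on the wt-SetB arrays, 3.82 to 4.46 on the myr-SetB arrays and 4.29 to 4.54 on the mCherry arrays. The labelled cell type was checked with markers. All 15 retinal ganglion cell markers passed the signal filter, against 4 of 11 amacrine and horizontal cell markers and 1 of 12 photoreceptor and bipolar cell markers. The filter was also passed by 5 of 9 glial, 10 of 14 microglial and macrophage, and 6 of 9 endothelial, mural and fibroblast markers. The summed intensity of the ganglion cell markers was 7645 to 13240 in wt-SetB, 7960 to 14300 in myr-SetB and 11730 to 20210 in mCherry. In these bulk samples, fewer cells of a type and less RNA per cell cannot be told apart. All 15 ganglion cell markers were, like most Rab genes, below mCherry in both comparisons as deposited, with median differences of -0.51 in wt-SetB and -0.50 in myr-SetB. After cyclic loess normalization the medians were -0.18 in wt-SetB, with 14 of 15 below mCherry, and -0.22 in myr-SetB, with 11 of 15 below it. Of the 10 microglial and macrophage markers past the filter, 8 were above mCherry in each comparison, with medians of 0.12 in wt-SetB and 0.07 in myr-SetB as deposited and of 0.42 in wt-SetB and 0.34 in myr-SetB after cyclic loess normalization. Among them Cx3cr1, a chemokine receptor of microglia, differed by 0.73 ± 0.19 (SE, unadjusted p = 0.00438 in limma) in wt-SetB and 0.68 ± 0.19 (unadjusted p = 0.00636) in myr-SetB, without passing the adjusted test. Its values ran from 6.32 to 7.39. On most arrays they lay below the 90th percentile of odorant receptor clusters, used below as a yardstick of weak signal. Lyz2, of the same list, went the other way, by -0.52 in wt-SetB and -1.48 in myr-SetB. The part of these markers in the Rab result was not tested.

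Most Rab genes gave lower signal in cells with either form of Set-β than in mCherry cells, but no single Rab gene passed the test in any comparison. In wt-SetB, 41 of the 45 genes (91.1%) had a difference below 0, where 65.5% of all 18343 tested clusters did. In myr-SetB, 41 of 45 did as well, against 63.9% of all clusters. The median Rab difference was -0.48 in wt-SetB and -0.55 in myr-SetB, beside -0.18 in wt-SetB and -0.16 in myr-SetB over all clusters. Over the 10714 clusters with 1 symbol, the class to which the Rab genes belong, it was -0.29 in wt-SetB and -0.26 in myr-SetB, and 77.2% of them were below 0 in wt-SetB and 74.5% in myr-SetB. The filter uses all arrays, and Rab28 passed it only through mCherry, with a mean of 6.49 over the arrays with Set-β and 7.61 in mCherry. Without a filter, 44 of 54 Rab genes (81.5%) were below mCherry in wt-SetB, against 57% of all clusters, and 42 of 54 (77.8%) in myr-SetB, against 54%. Both comparisons use the same 3 mCherry arrays, so the second is no independent repeat of the first. The members above mCherry were Rab1b, Rab3b, Rab19 and Rab25 in wt-SetB, and Rab13, Rab19, Rab25 and Rab36 in myr-SetB.

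Tests were made with limma on all 9 arrays, with Benjamini-Hochberg adjustment over the 18343 clusters. At an adjusted p under 0.05, 0 Rab genes passed in each comparison, and so did 0% of all clusters. The smallest adjusted p of a Rab gene was 0.447 in wt-SetB and 0.447 in myr-SetB against mCherry. At an unadjusted p under 0.05, 4 Rab genes were lower in wt-SetB (Rab4b, Rab28, Rab31 and Rab33b), which is 8.89% against 7.13% of all clusters, and 0 were higher, against 3.04%. In myr-SetB 7 were lower (Rab2b, Rab6a, Rab9a, Rab11b, Rab12, Rab21 and Rab28), which is 15.6% against 6.92%, and 0 were higher, against 2.87%. The wt-SetB share is near that of all clusters. In a fit of the 10714 clusters with 1 symbol alone, 10.8% were at an unadjusted p under 0.05 in either direction in each comparison. Those lower numbered 1023 in wt-SetB and 1009 in myr-SetB. The Rab genes at that threshold in this fit were 4 of 45 in wt-SetB and 12 of 45 in myr-SetB.

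The count of 4 in wt-SetB moved with single arrays: it was 1 without wt-SetB replicate 2, 2 without myr-SetB replicate 2, 8 without mCherry replicate 2, 10 without myr-SetB replicate 3 and 16 without myr-SetB replicate 1. The myr-SetB arrays act on this count through the shared estimate of spread. The count of 7 in myr-SetB was 0 without myr-SetB replicate 1 and 30 without myr-SetB replicate 3. It was 1 without mCherry replicate 1 or replicate 3, 2 without wt-SetB replicate 2, 3 without wt-SetB replicate 1 or myr-SetB replicate 2, and 11 without mCherry replicate 2. Without myr-SetB replicate 1 the median Rab difference in myr-SetB was -0.25, or -0.17 relative to all clusters, and 37 of 45 genes were below mCherry.

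Counted by arrays, all 3 wt-SetB arrays lay below all 3 mCherry arrays for 22 of 45 Rab genes (48.9%), against 26.4% of all clusters, and all 3 lay above for 0, against 7.31%. Rab28 is among the 22, and since it passed the filter only through mCherry, its place there is no support for a difference. For myr-SetB these counts were 5 of 45 (11.1%), against 6.85% of all clusters, and 0, against 4.55%. The 5 were Rab6b, Rab9b, Rab11b, Rab21 and Rab33b. For Rab9b, Rab11b, Rab21 and Rab33b the highest myr-SetB array was only just below the lowest mCherry array, as with 9.259 against 9.270 for Rab21. Clusters with 1 symbol alone, the closer class, were not counted in this way. The lower count in myr-SetB goes with a wider spread: the median SD of a Rab gene was 0.20 in wt-SetB, 0.51 in myr-SetB and 0.34 in mCherry, and for 32 of 45 genes the SD was largest in myr-SetB. For some genes the wt-SetB arrays were nearly equal, with an SD of 0.0026 for Rab5b and 0.0029 for Rab36. Why these values nearly coincide was not tested, and a small SD of this kind need not mean close replicates.

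**Figure D1:**
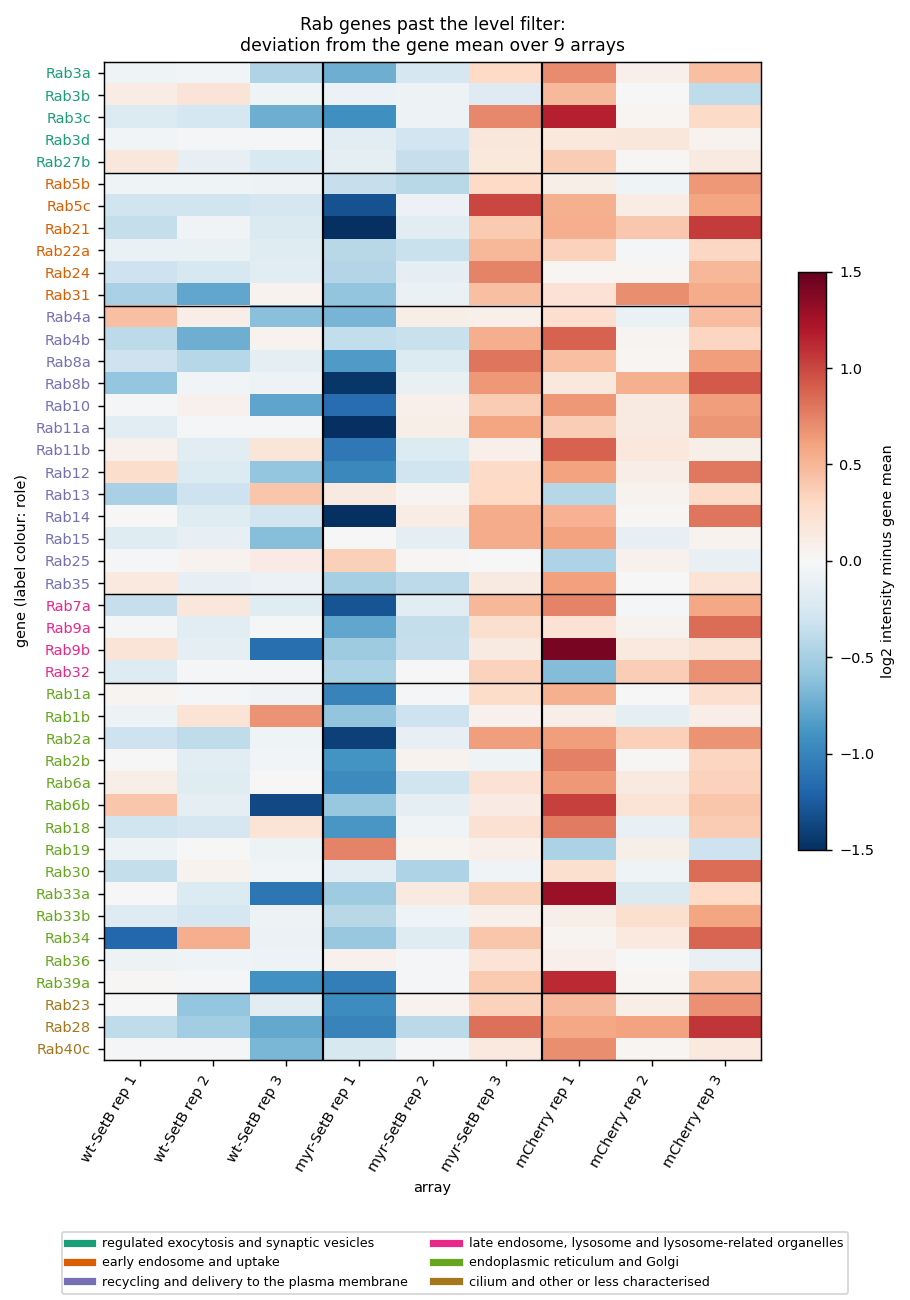
Deviation of log2 intensity from the mean of each gene over 9 arrays, for the 45 Rab genes past the filter, in rows by role and in columns by array (red above and blue below the gene mean, with the end colour for values beyond the scale). The column of myr-SetB replicate 1 is blue for most genes and the columns of mCherry replicates 1 and 3 are red.

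The plot of deviations by array shows arrays of unequal height within the groups. The median deviation of the 45 genes from their means was -0.07, -0.12 and -0.08 on the wt-SetB arrays. It was -0.60, -0.13 and 0.29 on the myr-SetB arrays, and 0.52, 0.05 and 0.43 on the mCherry arrays. The wt-SetB arrays lay close together, while the myr-SetB arrays were spread from the lowest of the study to the level of the mCherry arrays. Myr-SetB replicate 1, the array with the narrowest signal range, was the lowest array for 27 of 45 genes. Replicates 1 and 3 of mCherry, whose ranges were the widest, were the highest for 19 and for 15 genes.

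**Figure D2:**
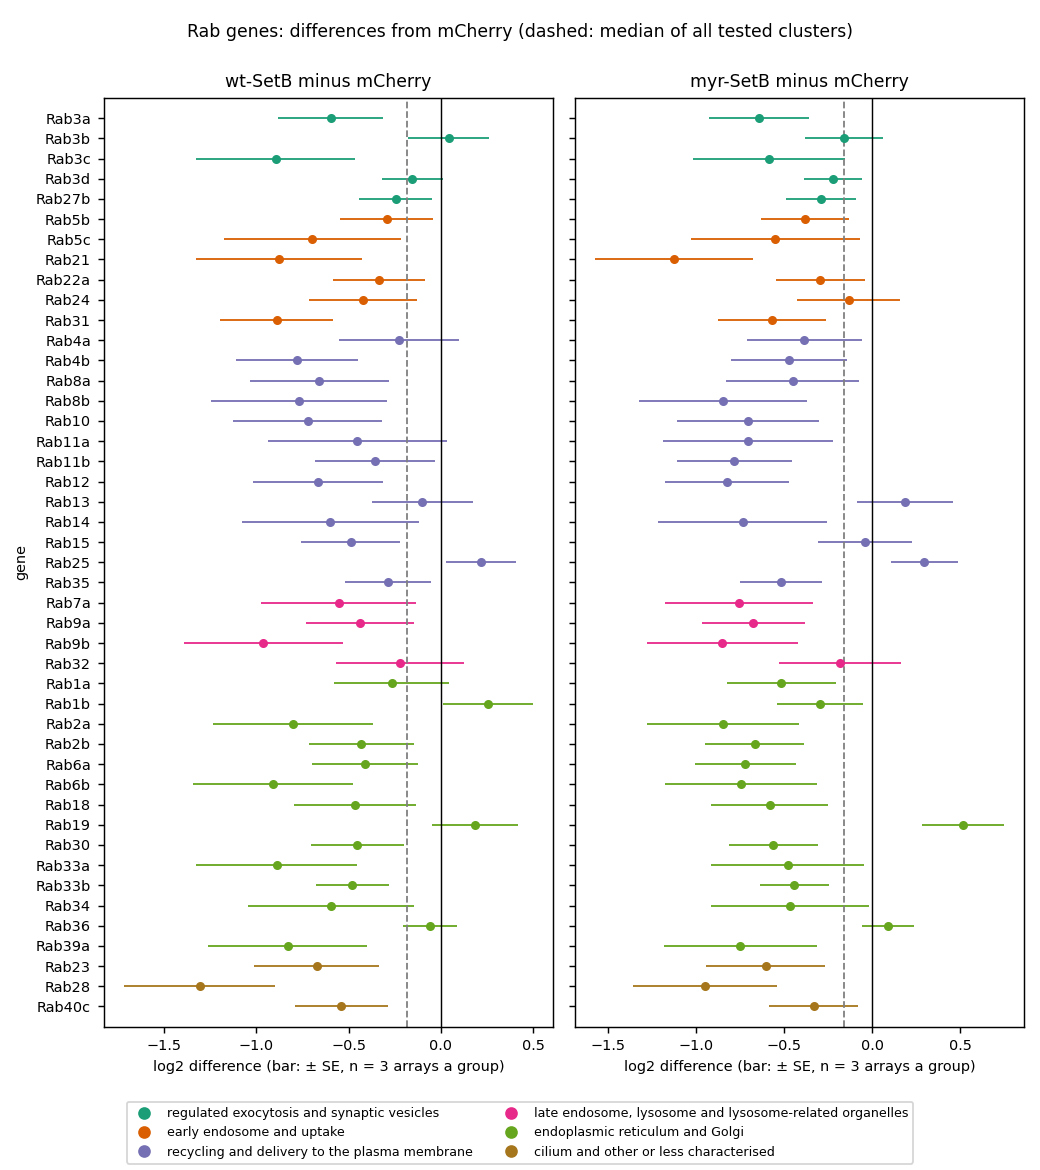
Difference in log2 intensity of each Rab gene, for wt-SetB minus mCherry (left) and myr-SetB minus mCherry (right), with bars of ± 1 SE from the fit to 3 arrays a group and colours by role. The dashed line is the median of all tested clusters, -0.18 on the left and -0.16 on the right, and 38 of the 45 genes lie below it on the left and 39 on the right.

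Since the arrays differ in signal range, the Rab genes were also set beside clusters of like signal, with all tested clusters divided by mean into 4 equal bins. In the bin with the highest means, the median difference in wt-SetB was -0.58 over 20 Rab genes, against -0.43 over all clusters. In myr-SetB it was -0.71 over these genes, against -0.46, and all 20 were below 0 in both comparisons. In the bin next to the lowest, 12 Rab genes had a median of -0.49 in wt-SetB, against -0.11 over all clusters, and of -0.39 in myr-SetB, against -0.08. The Rab median was the lower one in each of the 4 bins of both comparisons. The bins hold clusters with and without a symbol, and clusters with 1 symbol alone were not binned.

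**Figure D3:**
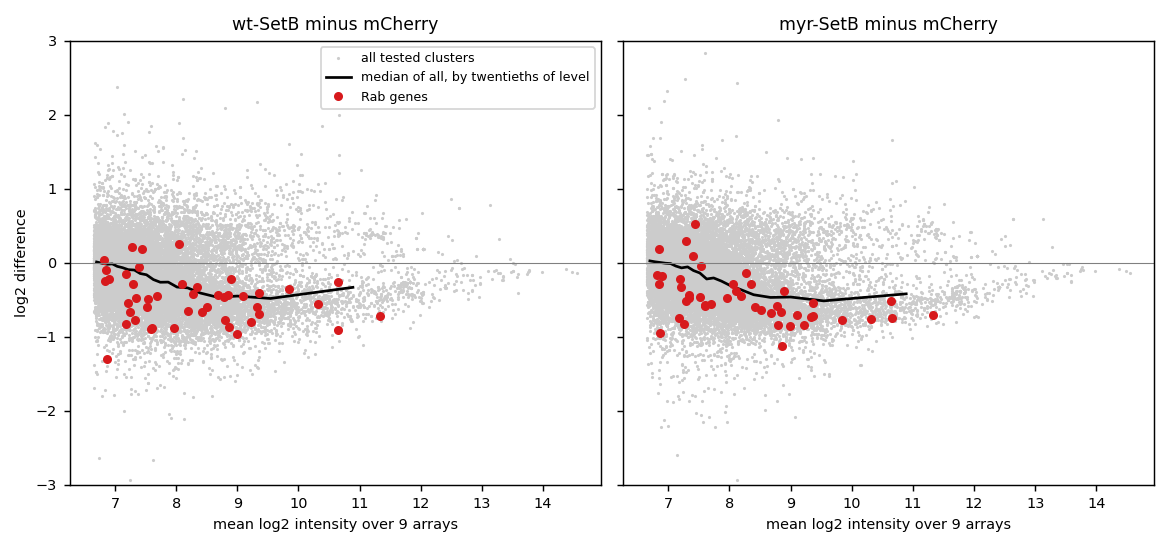
Log2 difference from mCherry (vertical) against mean log2 intensity over 9 arrays (horizontal) for all 18343 tested clusters (grey) and the 45 Rab genes (red), with wt-SetB on the left and myr-SetB on the right. The black line, the median of all clusters by level, falls below 0 as intensity increases, and most red points lie under it.

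Rescaling the arrays made the differences smaller and kept their direction as a family. With quantile normalization, which gives all arrays one distribution, the Rab median was -0.23 in wt-SetB and -0.35 in myr-SetB, and the median of all clusters was -0.03 in both. With cyclic loess, which levels pairs of arrays along intensity, the Rab median was -0.23 in wt-SetB, against -0.03 over all clusters, and -0.27 in myr-SetB, against -0.01. Relative to all clusters, the Rab median was thus -0.30 in wt-SetB as deposited, -0.20 after quantile and -0.20 after loess normalization, and for myr-SetB -0.39, -0.32 and -0.25. Relative to the clusters with 1 symbol it was nearer to 0, at -0.19, -0.11 and -0.11 in wt-SetB and -0.29, -0.22 and -0.17 in myr-SetB. The balance of all clusters also moved: of those at an unadjusted p under 0.05, 1308 of 1865 were lower in wt-SetB as deposited, 518 of 1368 after quantile and 773 of 1698 after loess normalization. For myr-SetB these were 1270 of 1796, 666 of 1541 and 713 of 1685.

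No Rab gene passed the test between the 2 forms of Set-β. Against wt-SetB, 22 of 45 genes (48.9%) were lower in myr-SetB, where 48.5% of all clusters were, and the median difference was 0.02, beside 0.01 over all clusters. At an unadjusted p under 0.05, 0 Rab genes were lower, against 0.567% of all clusters, and 0 were higher, against 0.567%, while 0% of all clusters passed the adjusted threshold. All 3 myr-SetB arrays lay below all 3 wt-SetB arrays for Rab3b (2.22% of the genes, against 1.76% of all clusters), and above them for Rab19 and Rab36 (4.44%, against 2.63%). The sign of this median rests on single arrays: it was 0.25 without myr-SetB replicate 1 and -0.22 without myr-SetB replicate 3. The smallest unadjusted p was that of Rab1b, with a difference of -0.55 ± 0.24 (SE, 95% interval -1.10 to 0.0016, adjusted p = 0.9998). The other cluster of Rab1b gave 0.0025 ± 0.21 in this comparison.

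Among the Rab genes of regulated exocytosis, 5 passed the filter, and 4 of them were below mCherry in wt-SetB and 5 in myr-SetB, with median differences of -0.24 in wt-SetB and -0.29 in myr-SetB. Rab3a, the main Rab of synaptic vesicles, had log2 intensities of 8.45, 8.47 and 8.06 in wt-SetB, 7.78, 8.26 and 8.80 in myr-SetB and 9.22, 8.58 and 8.96 in mCherry. All wt-SetB arrays were below the mCherry arrays, while myr-SetB replicate 3 overlapped them. The difference of Rab3a was -0.60 ± 0.28 (SE, unadjusted p = 0.0665) in wt-SetB and -0.64 ± 0.28 (unadjusted p = 0.0512) in myr-SetB. Its close relative Rab3c, also a vesicle protein, had 7.39, 7.34 and 6.86 in wt-SetB, 6.68, 7.51 and 8.31 in myr-SetB and 8.76, 7.62 and 7.88 in mCherry. Again only the wt-SetB arrays were clear of mCherry, with a difference of -0.89 ± 0.43 in wt-SetB, and of -0.58 ± 0.43 in myr-SetB. Rab3b had 6.93, 7.01 and 6.76 in wt-SetB, 6.73, 6.75 and 6.62 in myr-SetB and 7.30, 6.83 and 6.44 in mCherry. The mCherry arrays span both other groups, and the difference of 0.04 ± 0.22 in wt-SetB became -0.17 without mCherry replicate 3, while that of -0.16 ± 0.22 in myr-SetB became 0.06 without mCherry replicate 1. Rab27b, which acts with Rab3 proteins in secretory granules, had 7.01, 6.71 and 6.61 in wt-SetB, 6.69, 6.49 and 7.00 in myr-SetB and 7.23, 6.86 and 6.97 in mCherry. Its groups overlapped, with differences of -0.24 ± 0.20 in wt-SetB and -0.29 ± 0.20 in myr-SetB. Rab3d differed by -0.15 ± 0.16 in wt-SetB and -0.22 ± 0.16 in myr-SetB.

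All 6 tested Rab genes of the early endosome and uptake were below mCherry in both comparisons, with median differences of -0.56 in wt-SetB and -0.46 in myr-SetB. Rab21, an endosomal Rab that carries integrins, had 8.51, 8.80 and 8.64 in wt-SetB, 7.25, 8.70 and 9.26 in myr-SetB and 9.40, 9.27 and 9.91 in mCherry. Every array with Set-β was below every mCherry array, by little for myr-SetB replicate 3 (9.259, against 9.270 on the lowest mCherry array). Replicate 1 of myr-SetB was far below the other arrays. The difference was -1.12 ± 0.45 (SE, fold 0.459, unadjusted p = 0.0338) in myr-SetB and -0.88 ± 0.45 (unadjusted p = 0.0825) in wt-SetB, and without myr-SetB replicate 1 the myr-SetB value was -0.55. Rab31, which links the trans-Golgi network to endosomes, had 7.11, 6.82 and 7.65 in wt-SetB, 7.00, 7.50 and 8.05 in myr-SetB and 7.81, 8.29 and 8.15 in mCherry. Its wt-SetB arrays lay below all mCherry arrays, with a difference of -0.89 ± 0.31 (SE, unadjusted p = 0.0183), and myr-SetB replicate 3 overlapped mCherry. Rab22a, which sorts cargo at early endosomes, had 8.25, 8.25 and 8.16 in wt-SetB, 7.93, 8.01 and 8.84 in myr-SetB and 8.69, 8.32 and 8.66 in mCherry. Only its wt-SetB arrays were clear of mCherry (-0.34 ± 0.25), and the myr-SetB difference of -0.29 ± 0.25 turned to 0.04 after loess normalization. Of the Rab5 paralogs that drive fusion of early endosomes, Rab5c differed by -0.70 ± 0.48 in wt-SetB and -0.55 ± 0.48 in myr-SetB, where it was 0.04 without myr-SetB replicate 1. The other tested paralog, Rab5b, differed by -0.29 ± 0.25 in wt-SetB and -0.38 ± 0.25 in myr-SetB. Rab24, linked to autophagy, differed by -0.42 ± 0.29 in wt-SetB and by -0.13 ± 0.29 in myr-SetB, a value that was 0.13 after quantile and 0.19 after loess normalization and 0.11 without myr-SetB replicate 1.

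**Figure D4:**
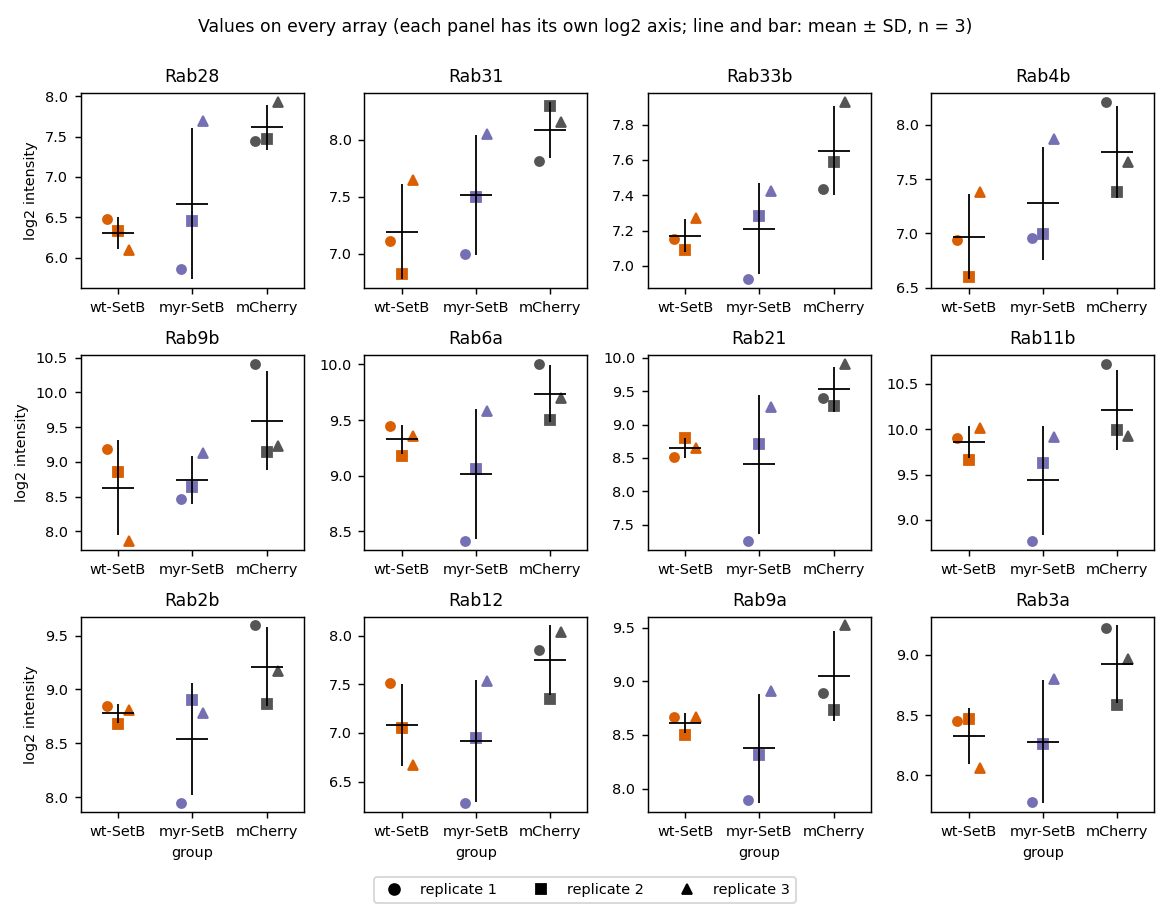
Log2 intensity of 12 Rab genes on every array, by group (orange wt-SetB, purple myr-SetB, grey mCherry) and replicate (symbol), with the mean as a line and ± SD as a bar (n = 3). Each panel has its own axis, and in 9 of the 12 the lowest point is myr-SetB replicate 1.

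In recycling and delivery to the plasma membrane 13 genes were tested, of which 12 were below mCherry in wt-SetB and 11 in myr-SetB (median differences -0.49 in wt-SetB and -0.52 in myr-SetB). Rab11a and Rab11b mark recycling endosomes, from which receptors return to the axon surface. Rab11b had 9.90, 9.66 and 10.02 in wt-SetB, 8.76, 9.63 and 9.92 in myr-SetB and 10.73, 9.997 and 9.93 in mCherry. The myr-SetB arrays were just below the lowest mCherry array, with a difference of -0.78 ± 0.33 (SE, unadjusted p = 0.0409) that was -0.44 without myr-SetB replicate 1, whereas wt-SetB overlapped mCherry. In wt-SetB the difference was -0.36 ± 0.33, and it was 0.01 after loess normalization. Rab11a had 8.94, 9.07 and 9.08 in wt-SetB, 7.46, 9.19 and 9.68 in myr-SetB and 9.46, 9.23 and 9.76 in mCherry. Its low myr-SetB mean came from replicate 1, with -0.71 ± 0.48 over all arrays and -0.05 without it, while the wt-SetB arrays, at -0.45 ± 0.48, were all below mCherry.

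Rab10, which adds membrane to the growing axon, had 11.31, 11.40 and 10.54 in wt-SetB, 10.19, 11.40 and 11.71 in myr-SetB and 11.98, 11.47 and 11.96 in mCherry. Its wt-SetB arrays were below all mCherry arrays at -0.72 ± 0.40, and the myr-SetB difference of -0.70 ± 0.40 was -0.25 without replicate 1. Rab8b, which carries vesicles from the Golgi to the surface, had 8.21, 8.75 and 8.72 in wt-SetB, 7.33, 8.68 and 9.44 in myr-SetB and 8.94, 9.33 and 9.72 in mCherry. The same order held, with the wt-SetB arrays clear of mCherry (-0.77 ± 0.48) and myr-SetB overlapping it (-0.84 ± 0.48). Rab12, which sends transferrin receptor to lysosomes, had 7.52, 7.05 and 6.67 in wt-SetB, 6.28, 6.95 and 7.54 in myr-SetB and 7.85, 7.35 and 8.04 in mCherry. Both groups overlapped mCherry, and the difference was -0.83 ± 0.35 (SE, unadjusted p = 0.0441) in myr-SetB and -0.67 ± 0.35 in wt-SetB.

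Rab4a and Rab4b serve the fast return route from early endosomes. Rab4b had 6.94, 6.60 and 7.38 in wt-SetB, 6.96, 6.99 and 7.87 in myr-SetB and 8.21, 7.38 and 7.66 in mCherry. The highest wt-SetB array overlapped the lowest mCherry array, and the difference was -0.78 ± 0.33 (SE, unadjusted p = 0.0432) in wt-SetB and -0.47 ± 0.33 in myr-SetB. Rab4a had 9.35, 8.99 and 8.27 in wt-SetB, 8.20, 8.98 and 8.97 in myr-SetB and 9.14, 8.80 and 9.36 in mCherry. Here the groups overlapped and the sign was not stable: the wt-SetB difference of -0.23 ± 0.33 was 0.13 after quantile and after loess normalization and 0.07 without wt-SetB replicate 3, and the myr-SetB difference of -0.38 ± 0.33 was 0.04 after loess normalization. Rab35, a Rab of endocytic recycling, had 7.44, 7.17 and 7.20 in wt-SetB, 6.79, 6.90 and 7.43 in myr-SetB and 7.90, 7.28 and 7.49 in mCherry. Its groups overlapped, at -0.29 ± 0.23 in wt-SetB and -0.52 ± 0.23 (unadjusted p = 0.0524) in myr-SetB. Rab15, which acts at early and recycling endosomes, had 7.36, 7.42 and 6.90 in wt-SetB, 7.53, 7.40 and 8.09 in myr-SetB and 8.15, 7.41 and 7.59 in mCherry. The myr-SetB and mCherry arrays overlapped, at -0.04 ± 0.27, a value that was 0.13 after quantile and 0.11 after loess normalization, while wt-SetB differed from mCherry by -0.49 ± 0.27 and myr-SetB from wt-SetB by 0.45 ± 0.27 (95% interval -0.16 to 1.06). Of the remaining members, Rab8a differed by -0.66 ± 0.38 in wt-SetB and -0.45 ± 0.38 in myr-SetB. Rab14, which acts between the Golgi and endosomes, differed by -0.60 ± 0.48 in wt-SetB and -0.73 ± 0.48 in myr-SetB. Rab13, known from tight junctions, differed by -0.10 ± 0.27 in wt-SetB and 0.19 ± 0.27 in myr-SetB, and both signs turned when single arrays were left out. Rab25, the epithelial relative of Rab11, was above mCherry in both, by 0.22 ± 0.19 in wt-SetB and 0.30 ± 0.19 in myr-SetB, with overlapping arrays.

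All 4 tested Rab genes of late endosomes and lysosomes were below mCherry in both comparisons, with median differences of -0.50 in wt-SetB and -0.72 in myr-SetB. For Rab32 the differences were small, at -0.22 ± 0.35 in wt-SetB and -0.18 ± 0.35 in myr-SetB, and both signs turned when single arrays were left out. Rab7a, which directs late endosomes and the retrograde carriers of neurotrophin receptors, had 9.97, 10.50 and 10.14 in wt-SetB, 9.03, 10.17 and 10.81 in myr-SetB and 11.07, 10.31 and 10.90 in mCherry. Both groups overlapped mCherry, with differences of -0.55 ± 0.42 in wt-SetB and -0.76 ± 0.42 in myr-SetB, the second -0.27 without myr-SetB replicate 1. Rab9a, which returns mannose 6-phosphate receptors to the Golgi, had 8.66, 8.50 and 8.66 in wt-SetB, 7.90, 8.32 and 8.91 in myr-SetB and 8.89, 8.73 and 9.52 in mCherry. The wt-SetB arrays were below every mCherry array (-0.44 ± 0.29), and myr-SetB differed by -0.67 ± 0.29 (SE, unadjusted p = 0.0461) with replicate 3 among the mCherry arrays. Rab9b, its paralog, had 9.18, 8.85 and 7.86 in wt-SetB, 8.46, 8.64 and 9.12 in myr-SetB and 10.42, 9.14 and 9.22 in mCherry. For Rab9b it was the myr-SetB arrays that lay below mCherry, the highest of them only just, at -0.85 ± 0.43. The wt-SetB difference of -0.96 ± 0.43 (unadjusted p = 0.0525) was -0.55 without mCherry replicate 1, the highest array.

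The Rab genes of the endoplasmic reticulum and Golgi numbered 14 after the filter, with 12 below mCherry in each comparison and median differences of -0.46 in wt-SetB and -0.54 in myr-SetB. Rab6a and Rab6b steer vesicles at the Golgi, Rab6b mainly in neurons. Rab6a had 9.44, 9.18 and 9.35 in wt-SetB, 8.41, 9.06 and 9.58 in myr-SetB and 10.01, 9.50 and 9.70 in mCherry. All wt-SetB arrays were below mCherry (-0.41 ± 0.29), and the myr-SetB difference of -0.72 ± 0.29 (SE, fold 0.607, unadjusted p = 0.0336) was -0.42 without replicate 1. Rab6b had 11.07, 10.52 and 9.30 in wt-SetB, 10.09, 10.52 and 10.77 in myr-SetB and 11.68, 10.86 and 11.07 in mCherry. Its myr-SetB arrays were all below mCherry (-0.74 ± 0.43), while wt-SetB ran from the lowest value to overlap with mCherry (-0.91 ± 0.43, or -0.41 without wt-SetB replicate 3).

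Rab1a and Rab1b carry vesicles from the endoplasmic reticulum to the Golgi. Rab1a had 10.69, 10.62 and 10.59 in wt-SetB, 9.64, 10.61 and 10.91 in myr-SetB and 11.18, 10.64 and 10.89 in mCherry. The groups overlapped, and the wt-SetB difference of -0.27 ± 0.31 was 0.03 after quantile and 0.08 after loess normalization, while myr-SetB differed by -0.52 ± 0.31. Rab1b had 7.97, 8.26 and 8.72 in wt-SetB, 7.45, 7.74 and 8.12 in myr-SetB and 8.13, 7.91 and 8.15 in mCherry. It was above mCherry in wt-SetB (0.25 ± 0.24) and below it in myr-SetB (-0.30 ± 0.24), with overlapping arrays. The other cluster of Rab1b gave a different picture, with -0.20 ± 0.21 in each comparison with mCherry and 0.00 ± 0.21 between the forms of Set-β, so the 2 clusters of this gene disagree.

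Rab2a and Rab2b act at the Golgi and its intermediate compartment. Rab2b had 8.85, 8.68 and 8.81 in wt-SetB, 7.94, 8.90 and 8.78 in myr-SetB and 9.59, 8.86 and 9.17 in mCherry. Only wt-SetB was clear of mCherry (-0.43 ± 0.28), although myr-SetB had the larger difference, -0.67 ± 0.28 (SE, unadjusted p = 0.0433), which was -0.37 without replicate 1. Rab2a had 8.90, 8.84 and 9.15 in wt-SetB, 7.81, 9.09 and 9.85 in myr-SetB and 9.84, 9.58 and 9.88 in mCherry. It differed by -0.80 ± 0.43 in wt-SetB, whose arrays were all below mCherry, and by -0.85 ± 0.43 in myr-SetB, or -0.30 without replicate 1. Rab33b, which binds an autophagy factor at the Golgi, had 7.15, 7.09 and 7.27 in wt-SetB, 6.92, 7.28 and 7.42 in myr-SetB and 7.44, 7.59 and 7.93 in mCherry. As for Rab21, the arrays of both forms of Set-β were below mCherry, by little for myr-SetB replicate 3 (7.424, against 7.437 on the lowest mCherry array). The differences were -0.48 ± 0.20 (SE, unadjusted p = 0.0379) in wt-SetB and -0.44 ± 0.20 (unadjusted p = 0.052) in myr-SetB. Rab33a, which carries vesicles into growing axons, had 7.95, 7.75 and 6.87 in wt-SetB, 7.42, 8.09 and 8.29 in myr-SetB and 9.25, 7.73 and 8.25 in mCherry. The groups overlapped and mCherry replicate 1 stood high: the differences of -0.89 ± 0.44 in wt-SetB and -0.48 ± 0.44 in myr-SetB were -0.47 in wt-SetB and -0.06 in myr-SetB without it.

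Rab19 ran the other way. It had 7.36, 7.43 and 7.36 in wt-SetB, 8.18, 7.47 and 7.51 in myr-SetB and 6.97, 7.52 and 7.12 in mCherry. The myr-SetB arrays were all above those of wt-SetB, by 0.33 ± 0.23 (95% interval -0.19 to 0.86), and overlapped mCherry, at 0.52 ± 0.23 (SE, unadjusted p = 0.0539). Without myr-SetB replicate 1, the high array, these values were 0.10 against wt-SetB and 0.29 against mCherry. Further Golgi members were Rab39a, at -0.83 ± 0.43 in wt-SetB and -0.75 ± 0.43 in myr-SetB, and Rab34, at -0.59 ± 0.45 in wt-SetB and -0.47 ± 0.45 in myr-SetB. Rab18, which links the endoplasmic reticulum to lipid droplets, differed by -0.46 ± 0.33 in wt-SetB and -0.58 ± 0.33 in myr-SetB. Rab30 differed by -0.45 ± 0.25 in wt-SetB and -0.56 ± 0.25 in myr-SetB. Rab36 differed by -0.06 ± 0.15 in wt-SetB, a value that was 0.06 after quantile and 0.08 after loess normalization, and by 0.09 ± 0.15 in myr-SetB. Whether probes of close paralogs such as Rab1a and Rab1b, Rab6a and Rab6b or Rab11a and Rab11b share signal was not tested.

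The most negative difference of any member was that of Rab28, a Rab of the cilium whose loss causes a retinal dystrophy in humans. Rab28 had 6.49, 6.34 and 6.10 in wt-SetB, 5.86, 6.46 and 7.69 in myr-SetB and 7.44, 7.47 and 7.93 in mCherry. The wt-SetB arrays were all well below the mCherry arrays, while the myr-SetB arrays were spread over the range of both groups. The measured difference was -1.31 ± 0.41 (SE) in wt-SetB and ranged from -1.40 to -1.15 when any 1 array was left out. In myr-SetB it was -0.95 ± 0.41, or -0.54 without replicate 1. Since the gene passed the filter only through its mCherry arrays, these values are a description. Its place in the counts at an unadjusted p under 0.05 and in the count by arrays is no support for them. On all 3 wt-SetB arrays and 2 myr-SetB arrays, Rab28 was below the 90th percentile of the 1198 odorant receptor clusters of the same array, receptors of the nose that serve here as a yardstick of weak signal, and on 0 mCherry arrays. A fold is not given against signal this weak. Rab33b was below this percentile on 3 wt-SetB and 2 myr-SetB arrays, Rab4b on 2 wt-SetB, 2 myr-SetB and 1 mCherry array, and Rab31 on 2 wt-SetB arrays and 1 myr-SetB array. Rab3c was below it on 3 wt-SetB arrays and 1 myr-SetB array. For Rab3b it was 3 wt-SetB, 3 myr-SetB and 2 mCherry arrays, and for Rab27b 3, 2 and 2. Rab3d, Rab35, Rab39a and Rab40c were each below it on 3 wt-SetB, 2 myr-SetB and 1 mCherry array. Rab12 was below it on 2 wt-SetB, 2 myr-SetB and 1 mCherry array. In the same order of groups, the arrays were 3, 2 and 3 for Rab13, 2, 2 and 2 for Rab25, and 3, 2 and 2 for Rab32. They were 3, 2 and 0 for Rab36, 2, 2 and 0 for Rab15, and 1, 2 and 0 for Rab30 and for Rab34. Genes below it on no more than 1 array of any group are not listed. The same limit holds for all values given here for the listed genes. Rab23, an antagonist of Hedgehog signalling at the cilium, differed by -0.67 ± 0.34 in wt-SetB and -0.60 ± 0.34 in myr-SetB. Rab40c, which joins a ubiquitin ligase, differed by -0.54 ± 0.25 in wt-SetB and -0.33 ± 0.25 in myr-SetB.

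The 9 genes below the filter were Rab7b, Rab17, Rab20, Rab26, Rab27a, Rab37, Rab38, Rab40b and Rab43. On all 9 arrays each of them was below the 90th percentile of the odorant receptor clusters. They include Rabs best known outside neurons, such as Rab17 of epithelia and Rab38 of melanosomes, and the secretory Rab27a. Their group means ranged from 5.68 to 6.66 in wt-SetB, 5.81 to 6.74 in myr-SetB and 5.43 to 6.60 in mCherry. They were not tested, and a comparison between groups at this signal was not made.

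The summed signal of some other cell markers was lowest on replicate number 1 in every group. In wt-SetB the summed intensity of glial markers was 1271 on replicate 1, against 3286 and 4399 on replicates 2 and 3, in myr-SetB 1348 against 3705 and 5257, and in mCherry 1639 against 4064 and 5544. The endothelial, mural and fibroblast sum was 914.4, 971.8 and 904.9 on the 3 replicate 1 arrays and 4841 or more on the others. Most of the glial gap lay in Vim, with 7.84, 11.15 and 11.79 in wt-SetB, and Gfap, Slc1a3, Rlbp1 and S100b did not pass the filter. Most of the endothelial, mural and fibroblast gap lay in Tagln, with 7.34, 11.89 and 11.89 in wt-SetB. Pdgfrb, Rgs5 and Col1a2 were also lowest on replicate 1 in every group, while the endothelial marker Cdh5 was highest there. The microglial and macrophage sum was 1926, 1951 and 1897, and 2430 or more on the others. Rab8b, Rab32 and Rab34 were lowest on replicate 1 in every group, which is 3 of 45 Rab genes (6.67%), against 7.35% of all clusters. Rab32, a Rab of melanosomes and mitochondria, had 6.71, 6.88 and 6.87 in wt-SetB, 6.43, 6.90 and 7.25 in myr-SetB and 6.25, 7.28 and 7.59 in mCherry. Rab34, which acts in cilium formation and lysosome position, had 6.35, 8.07 and 7.43 in wt-SetB, 6.95, 7.34 and 7.94 in myr-SetB and 7.56, 7.68 and 8.40 in mCherry. The part of other cells in these values was not tested.

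**Figure D5:**
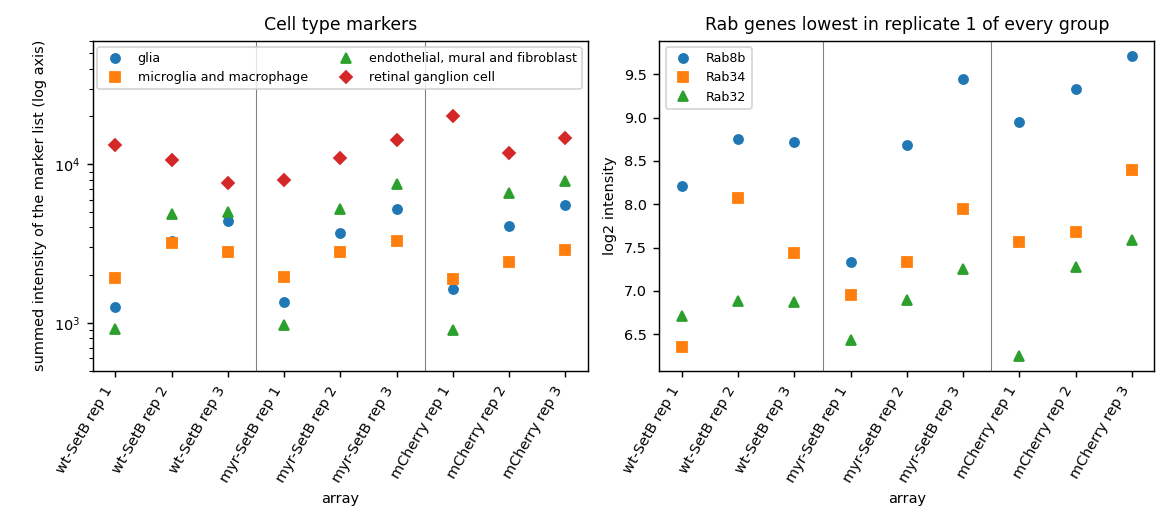
Left, summed intensity of cell type marker lists on a log axis, and right, log2 intensity of Rab8b, Rab34 and Rab32, on each of 9 arrays in groups of wt-SetB, myr-SetB and mCherry. The glial, microglial and endothelial sums and all 3 genes are lowest on replicate 1 in every group, while the ganglion cell sum is not.

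Of the proteins that load, anchor, switch and read Rabs, none passed the adjusted test in limma. Several of those named below gave weak signal. Ccz1, Ric1, Tbc1d13, Tbc1d19, Ocrl, Sytl2 and Rufy1 were below the 90th percentile of odorant receptor clusters on several arrays with Set-β. That percentile was 6.89 on mCherry replicate 1, 7.67 on myr-SetB replicate 1 and between these on the other arrays. This limits what the values of these genes can show. Their counts are read against the array-wide shares given above for all clusters, not against clusters with 1 symbol, the class to which these genes belong. The median differences were -0.57 in wt-SetB and -0.69 in myr-SetB for anchoring and extraction, and -0.43 in wt-SetB and -0.32 in myr-SetB for effectors. For exchange factors they were -0.27 in wt-SetB and -0.21 in myr-SetB, and for GTPase-activating proteins -0.28 in wt-SetB and -0.25 in myr-SetB, in both lists no lower than over clusters with 1 symbol (-0.29 in wt-SetB and -0.26 in myr-SetB). Of the proteins of anchoring and extraction, 8 were listed and 6 passed the filter, with 5 below mCherry in wt-SetB and 6 in myr-SetB. At an unadjusted p under 0.05, 1 was lower in wt-SetB, where 7.13% of all clusters were, and 2 in myr-SetB, against 6.92%. Rabif, a chaperone that holds nucleotide-free Rabs, had 8.05, 8.06 and 8.35 in wt-SetB, 7.05, 8.07 and 8.38 in myr-SetB and 9.31, 8.41 and 9.10 in mCherry. All arrays with Set-β were below the mCherry arrays, by little on some, at -0.79 ± 0.36 in wt-SetB and -1.11 ± 0.36 (SE, unadjusted p = 0.0135) in myr-SetB. Chm, the Rab escort protein that is lost in human choroideremia, had 7.60, 7.75 and 7.79 in wt-SetB, 7.17, 7.86 and 7.70 in myr-SetB and 8.78, 7.89 and 8.63 in mCherry. It too was below mCherry on every array with Set-β, by little on some, with -0.72 ± 0.27 (unadjusted p = 0.0266) in wt-SetB and -0.86 ± 0.27 (unadjusted p = 0.0116) in myr-SetB. Rabggtb, the catalytic subunit of the transferase that prenylates Rabs, differed by -0.34 ± 0.24 in wt-SetB and -0.48 ± 0.24 in myr-SetB.

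Of 42 exchange factors listed, 28 passed the filter, and 25 of these were below mCherry in wt-SetB and 23 in myr-SetB, with 4 lower in wt-SetB (14.3%, against 7.13% of all clusters) and 2 in myr-SetB (7.14%, against 6.92%) at an unadjusted p under 0.05. Ccz1, a subunit of the exchange factor of Rab7, had 7.23, 6.70 and 7.40 in wt-SetB, 7.31, 7.38 and 7.78 in myr-SetB and 8.44, 7.63 and 7.98 in mCherry. Its wt-SetB arrays were all below mCherry, with a difference of -0.91 ± 0.27 (SE, unadjusted p = 0.00865), and the myr-SetB difference was -0.53 ± 0.27. Ric1, of the exchange factor of Rab6, had 7.15, 7.07 and 7.40 in wt-SetB, 6.78, 7.52 and 7.62 in myr-SetB and 7.91, 7.92 and 7.87 in mCherry. Both groups were below the tightly grouped mCherry arrays, at -0.69 ± 0.23 (unadjusted p = 0.0153) in wt-SetB and -0.60 ± 0.23 (unadjusted p = 0.0304) in myr-SetB. Trappc1, of the TRAPP exchange complex for Rab1, differed by -0.67 ± 0.27 in wt-SetB and -0.66 ± 0.27 in myr-SetB.

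Among GTPase-activating proteins, 26 of 35 passed the filter, with 24 below mCherry in wt-SetB and 20 in myr-SetB, and 2 lower in each at an unadjusted p under 0.05 (7.69%, near the 7.13% of all clusters in wt-SetB and 6.92% in myr-SetB). Tbc1d19 differed by -0.77 ± 0.29 in wt-SetB and -0.44 ± 0.29 in myr-SetB, and Tbc1d13 by -0.54 ± 0.22 in wt-SetB and -0.48 ± 0.22 in myr-SetB. Tbc1d15, which acts on Rab7, differed by -0.59 ± 0.29 in wt-SetB and -0.68 ± 0.29 in myr-SetB. Of 73 effectors, 47 passed the filter, with 40 below mCherry in wt-SetB and 36 in myr-SetB, and 8 lower in wt-SetB (17%, against 7.13% of all clusters) and 7 in myr-SetB (14.9%, against 6.92%) at an unadjusted p under 0.05. Among the 8, Sytl2 had means of 6.43 in wt-SetB, 6.55 in myr-SetB and 7.30 in mCherry. Rufy1, also among them, had 6.40 in wt-SetB, 6.75 in myr-SetB and 6.93 in mCherry. Both passed the filter only through mCherry, so their place in this count is no support for a difference. Myo5a, the myosin that moves vesicles along actin, had 9.01, 8.98 and 8.87 in wt-SetB, 8.12, 8.89 and 9.40 in myr-SetB and 10.17, 9.36 and 9.55 in mCherry. The wt-SetB arrays were clear of mCherry at -0.74 ± 0.33, and myr-SetB differed by -0.89 ± 0.33 (SE, unadjusted p = 0.0249) with its highest array just inside the mCherry range. Ocrl, a phosphoinositide phosphatase that binds Rabs, differed by -0.70 ± 0.29 in wt-SetB and -0.83 ± 0.29 in myr-SetB, and Vps16, of the tethering complexes of late endosomes, by -0.64 ± 0.24 in each of wt-SetB and myr-SetB. In each of these 4 lists 0 genes were higher at an unadjusted p under 0.05 in any comparison, and 0 were lower in myr-SetB against wt-SetB.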

How the data were processed

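Per the series' design text, amplified and biotin-labelled cDNA was hybridised to Affymetrix Rat Gene 2.0 ST arrays. Affymetrix Expression Console and RMA are named, without versions, per the submitters' processing notes, and the authors then scaled each array to its median. The deposited values are intensities on a linear scale, 1 per transcript cluster (36685), with a median of 100 on each array. The array was designed on a genome build not given in the sources used here. Clusters were named from the platform annotation: 18511 had 1 symbol, 575 several and 17599 none.

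Intensities were log2-transformed and fitted in R 4.3.3 with limma 3.58.1, using lmFit and eBayes with two-sided tests (3 group means, 6 residual and 2.82 prior degrees of freedom). Clusters with a mean below the median of all means were left out, leaving 18343. Intervals are 95% intervals of the fit. The number of arrays limits the precision. The members and all gene lists were chosen with earlier results of these data known. Array values are given for the 5 members of smallest p in each comparison and a list of members by role, and from each partner list the 3 genes of smallest p are named. Alternatives were 2 normalizations, other filters, array weights, 1 array left out, a replicate block and a fit of 2 groups. The fit was also run on simulated data with independent noise and planted differences larger than those of the Rab genes. That run has no bearing on shifts shared by a whole array.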

Additional observations from a re-analysis of the deposited data

How the results depend on the processing

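The Rab median stayed below 0 against mCherry under all alternatives run, from -0.65 to -0.45 in wt-SetB and from -0.79 to -0.25 in myr-SetB when 1 array was left out. The count of Rab genes at an unadjusted p under 0.05 was less stable. In wt-SetB (4) it was 1 under a 75th percentile filter, 22 with array weights, 15 with weights estimated gene by gene, 16 in a fit of only the 2 groups compared, and 1 to 16 with 1 array left out. In myr-SetB (7) it was 3 after quantile and 4 after loess normalization, 3 with the filter at the 75th percentile, 11 without one, 12 among single-symbol clusters, 27 with array weights, 16 with weights gene by gene, 1 in a fit of 2 groups, and 0 to 30 with 1 array left out. Between the forms of Set-β (0) it was 1 after either normalization, without a filter, among single-symbol clusters and with weights gene by gene, 9 with array weights, and 0 to 2 with 1 array left out. Array weights also brought 5903 clusters below an adjusted p of 0.05 in myr-SetB against mCherry and 1270 against wt-SetB. That estimate did not converge, and gave myr-SetB replicate 2 a weight of 165, beside 0.151 to 1.68 for the others. Weights gene by gene, an alternative chosen after seeing the data, gave 0 such clusters in each comparison. Same-numbered arrays did not all deviate together (correlations of -0.07 to 0.38, with 5 of 9 arrays closest to their own number). The labels do not say what a number marks, so the design was kept without a block. Replicate 1 had the lowest sums of glial and of endothelial, mural and fibroblast markers in every group, mostly through Vim and Tagln. Whether the numbers mark a shared culture was not tested. The replicate block gave 5 Rab genes in wt-SetB and 7 in myr-SetB against mCherry, and 1 in myr-SetB against wt-SetB. Of the 45 tested members, signs against mCherry turned in 7 for wt-SetB and 8 for myr-SetB under at least 1 alternative. For wt-SetB these were Rab1a (0.032 after quantile, 0.085 after loess), Rab4a (0.13 after both, -0.47 to 0.073 with 1 array left out), Rab11b (0.0146 after loess), Rab36 (0.0583 after quantile, 0.0752 after loess) and, with 1 array left out, Rab3b (-0.17 to 0.26), Rab13 (-0.37 to 0.0778) and Rab32 (-0.616 to 0.0552). For myr-SetB they were Rab15 (0.13 after quantile, 0.11 after loess, -0.25 to 0.17 with 1 array left out), Rab22a (0.041 after loess), Rab4a (0.035 after loess), Rab24 (0.13 after quantile, 0.186 after loess, -0.477 to 0.11 with 1 array left out), Rab13 (-0.0757 with array weights, -0.00311 with weights gene by gene, -0.0116 to 0.345 with 1 array left out), Rab5c (-1.12 to 0.040 with 1 array left out), Rab32 (-0.577 to 0.0941 with 1 array left out) and Rab3b (0.074 with array weights, 0.0085 with weights gene by gene, -0.37 to 0.062 with 1 array left out). The cause was not tested. Several Rab genes lie near the weakest signals, which limits what their values can show.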
